A study of Mus musculus with 16 samples.

Results

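The acute phase proteins described here are 10 genes, 10 of the 23420 genes counted in each library: the serum amyloid A genes Saa1, Saa2, Saa3 and Saa4, haptoglobin (Hp), lipocalin 2 (Lcn2), the orosomucoid genes Orm1, Orm2 and Orm3, and ceruloplasmin (Cp). They were picked by symbol as known acute phase genes, with earlier results of these data known and no threshold on their values, and all 10 were found in all 16 count files. The study sequenced polyadenylated RNA from 8 male C57BL/6 mice, 4 of them wild-type and 4 with Trib1 knocked out in adipocytes by their labels. Trib1 encodes a pseudokinase that acts as an adaptor for protein degradation. Each mouse gave 1 library of adipocytes, freed from subcutaneous fat with collagenase, and 1 library of liver. Of the mice, 5 were taken at 76 days of age (wt_1135, wt_1136 and wt_1138, ko_1137 and ko_1139) and 3 at 70 days (wt_1153, ko_1151 and ko_1152). Mice are named here by the ends of their sample titles. Which exons were removed, and the promoter behind the deletion, are not given in the sources.

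Acute phase proteins are plasma proteins whose synthesis changes during inflammation. The liver is their best known source: interleukin 6 acts through STAT3, and interleukin 1 and tumour necrosis factor through NF-kB, together with C/EBP transcription factors and glucocorticoid. Adipocytes are a known second source, and Saa3, Hp, Lcn2 and Orm1 are among the acute phase genes described in mouse fat. The protein C/EBP alpha is among the known targets of the degradation that Trib1 directs.

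The genes lie at 5 places in the genome (GRCm38, GENCODE M21 annotation). The Saa genes sit side by side on chromosome 7, at chr7:46711998-46715700 (Saa3), chr7:46727998-46732603 (Saa4), chr7:46740497-46742980 (Saa1) and chr7:46751790-46754313 (Saa2). Only Saa2 is on the forward strand, so that Saa1 and Saa2 are transcribed away from each other. The 3 Orm genes follow each other on the forward strand of chromosome 4, between Orm1 at chr4:63344560-63348163 and Orm2 at chr4:63362449-63365878, with Orm3 at chr4:63356162-63359511 between them. Hp is at chr8:109575128-109579172, Lcn2 at chr2:32384633-32388252 and Cp at chr3:19957054-20009145.

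Promoter sequence was examined as a description, and its bearing on the adipocyte differences was not tested. RefSeq promoters (GRCm38.p6, 250 bases before to 50 after a start) were held for 8 of the 10 genes, all but Hp and Orm1. Both strands were searched for a C/EBP pattern (TTNNGNAA), a STAT pattern (TTCNNNGAA) and an NF-kB pattern (GGG, any 5 bases, CC). The 250 bases before the start of 5 genes are printed 5′ to 3′ on each gene's own strand, with C/EBP and NF-kB matches in capitals. Saa3 is shown as the most abundant Saa gene of the adipocyte libraries, and Saa1 and Saa2 as a near-identical pair. Orm2 is shown for the orosomucoids and Lcn2 as a gene outside both clusters.
Saa3, chr7:46715677-46715926, reverse strand: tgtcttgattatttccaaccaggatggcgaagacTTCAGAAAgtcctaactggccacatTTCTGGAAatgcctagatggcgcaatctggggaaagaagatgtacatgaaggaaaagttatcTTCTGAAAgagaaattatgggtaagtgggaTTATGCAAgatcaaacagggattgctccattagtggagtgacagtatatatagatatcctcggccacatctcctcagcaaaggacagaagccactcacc
Saa1, chr7:46742981-46743230, reverse strand: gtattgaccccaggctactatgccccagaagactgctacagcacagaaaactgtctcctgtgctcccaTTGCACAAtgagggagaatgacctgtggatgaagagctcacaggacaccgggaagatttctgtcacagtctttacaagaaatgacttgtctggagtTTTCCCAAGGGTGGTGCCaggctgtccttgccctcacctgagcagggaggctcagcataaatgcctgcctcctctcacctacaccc
Saa2, chr7:46751583-46751832, forward strand: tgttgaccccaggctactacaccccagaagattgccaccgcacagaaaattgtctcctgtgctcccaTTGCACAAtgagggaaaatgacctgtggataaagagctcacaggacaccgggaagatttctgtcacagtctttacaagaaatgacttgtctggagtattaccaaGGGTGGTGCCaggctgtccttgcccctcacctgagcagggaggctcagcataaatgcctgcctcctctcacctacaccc
Orm2, chr4:63362199-63362448, forward strand: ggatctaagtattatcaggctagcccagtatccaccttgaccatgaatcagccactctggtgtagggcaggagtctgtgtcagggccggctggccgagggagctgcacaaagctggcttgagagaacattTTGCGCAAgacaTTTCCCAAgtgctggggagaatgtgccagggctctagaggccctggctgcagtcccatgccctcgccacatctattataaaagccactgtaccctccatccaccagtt
Lcn2, chr2:32387740-32387989, reverse strand: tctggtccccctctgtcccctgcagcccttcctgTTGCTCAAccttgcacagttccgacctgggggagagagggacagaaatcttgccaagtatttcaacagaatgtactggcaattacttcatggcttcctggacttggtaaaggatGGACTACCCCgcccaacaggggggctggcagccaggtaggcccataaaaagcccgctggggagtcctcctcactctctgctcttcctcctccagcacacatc

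All 8 genes held a C/EBP match, against 40.7% of the 32851 promoters of the same length in the RefSeq table. Cp was searched at 2 starts, so the 8 genes had 9 promoters, and its NF-kB match lies in the second of them only. Nor are the genes separate cases, since the 250 bases before the start are 94.8% identical between Saa1 and Saa2 and 85.5% between Orm2 and Orm3. Saa3 held 4, one of them TTATGCAA at 99 to 92 bases before the start, and Orm2 held TTGCGCAA at 120 to 113 bases before it. The pair Saa1 and Saa2 shared TTGCACAA and, nearer the start, the NF-kB match GGGTGGTGCC. In Saa1 that NF-kB match directly follows a C/EBP match, TTTCCCAA. An NF-kB match was found in 5 of the 8 (Cp, Lcn2, Saa1, Saa2 and Saa4), against 50.8% of all promoters. No STAT match was found in these windows, against 8.3% of all promoters. A match is a stretch of letters and not a measured binding site.

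Library totals ran from 28560887 to 53716669 counts assigned to genes. Levels are CPM, each count relative to its TMM-scaled library total, within a tissue unless stated, and differences are log2 values with standard errors from edgeR's quasi-likelihood test, adjusted over all genes tested by Benjamini-Hochberg. The targeted gene did not separate the labels. Trib1 differed by 0.28 ± 0.18 in adipocytes (adjusted p = 0.241) and by 0.12 ± 0.18 in liver (adjusted p = 0.875), so the altered group is called by its label. A 3′ or whole-gene count cannot check a deletion of unstated extent. The labelled tissues carried their markers. Summed adipocyte markers were 39991 to 56368 CPM in adipocyte libraries and 191 to 238 CPM in liver libraries, and hepatocyte markers reached 109165 to 144184 CPM in liver. Nothing in the labels gives a litter, cage or date, so such groupings did not enter the fits. Each p-value weighs a difference between groups against the spread within them. Where both tissues were fitted together, both libraries of a mouse entered as separate samples, with the mouse as a block only in an alternative.

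In adipocytes all 10 genes were higher in the knockout-labelled libraries, and for none of them did the groups overlap. The background is large: of 13795 genes tested, 35.2% were called and 18.0% were called higher, while in 33.9% the groups did not overlap (18.7% with every knockout-labelled library above every wild-type library, 15.2% below). The median difference of the 10 genes was 1.56, beside -0.01 over all genes tested. Together they took 0.357% ± 0.0679 (SD, n = 4) of all counts in wild-type and 0.885% ± 0.0516 (SD, n = 4) in knockout-labelled adipocytes. In bulk libraries such as these, fewer cells of a type and less RNA per cell cannot be told apart.

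Saa3, a serum amyloid A gene described in mouse fat, was the most abundant of its family in the adipocyte libraries. It was also counted in every liver library, with 91 to 259 counts. In mice wt_1135, wt_1136, wt_1138 and wt_1153, the order used for wild-type values throughout, Saa3 was at 8.09, 11.3, 14.5 and 16.2 CPM. In mice ko_1137, ko_1139, ko_1151 and ko_1152, the order used for knockout-labelled values, it was at 77.8, 64.1, 81.8 and 85.4 CPM. The lowest knockout-labelled library was well above the highest wild-type library. The mean was 6.17 times higher, a difference of 2.63 ± 0.20 (adjusted p = 5.39e-05).

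Saa1 and Saa2, which encode the forms carried by high-density lipoprotein during inflammation, rose from levels near 1 CPM or less. Saa1 was at 0.310, 1.07, 0.491 and 0.682 CPM in wild-type and at 2.5, 3.09, 4.28 and 5.08 CPM in knockout-labelled adipocytes. Saa2 was at 0.252, 1.11, 0.466 and 0.439 CPM against 1.93, 5.62, 6.44 and 6.46 CPM. Mouse wt_1136 was the highest wild-type library for both genes, and mouse ko_1137 the lowest knockout-labelled one. The differences were 2.55 ± 0.39 for Saa1 (adjusted p = 0.00156) and 3.17 ± 0.51 for Saa2 (adjusted p = 0.00205). The principal transcripts of the pair are 93.9% identical, and only 85.2% of the 50-base stretches of Saa1 and 86.7% of those of Saa2 occur in no other gene. How the authors counted reads that fit both is not given in the sources used here, so the split between them is uncertain.

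Saa4, the form made constitutively by the liver, was near the limit of detection in fat. Its counts were 0, 2, 2 and 14 in wild-type and 32, 34, 58 and 32 in knockout-labelled adipocytes. Mouse wt_1153 stood above the other 3 but below every knockout-labelled mouse. The fitted difference of 3.16 ± 0.78 (adjusted p = 0.0123) rests on these few counts and ran from 1.04 to 4.86 over the alternatives, lowest with the level of stromal markers as a covariate.

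Saa3 held the same place within its family in both genotypes. Per base of principal transcript it made up 91.7% ± 4.49 (SD, n = 4) of the 4 genes' counts in wild-type and 90.3% ± 3.02 (SD, n = 4) in knockout-labelled adipocytes. The liver mix was different, with Saa4 at 65.2% ± 4.87 (SD, n = 4) in wild-type livers and Saa3 at 2.60% ± 0.801 (SD, n = 4). Saa1 made up 26.4% ± 5.02 (SD, n = 4) of the wild-type liver mix. These shares are descriptions and were not tested.

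**Figure D1:**
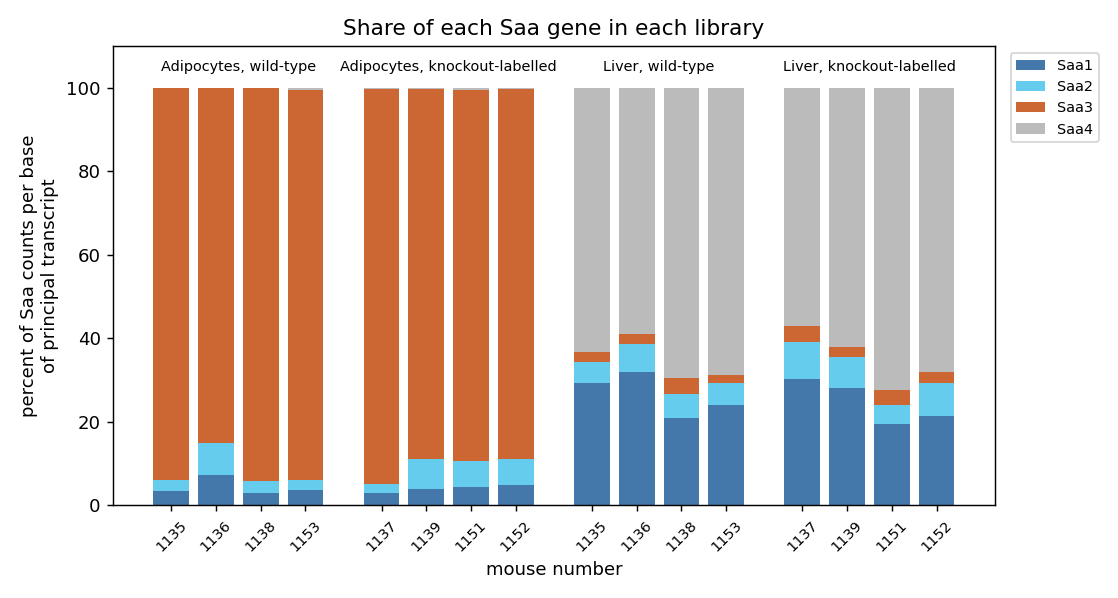
Share of each Saa gene (vertical axis, percent of the 4 genes' counts per base of principal transcript) in each of the 16 libraries, named by mouse number. Saa3 fills most of every adipocyte bar, at 91.7% in wild-type and 90.3% in knockout-labelled libraries on average, and Saa4 most of every liver bar.

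Haptoglobin, which binds free haemoglobin in plasma, was by far the most abundant of the 10 in fat. Hp was at 2257, 2273, 3061 and 3734 CPM in wild-type and at 8290, 7907, 8190 and 8391 CPM in knockout-labelled adipocytes. The knockout-labelled libraries were close to each other, with a coefficient of variation of 2.54% against 25.1% in wild-type. The mean was 2.89 times higher, a difference of 1.53 ± 0.18 (adjusted p = 0.000464).

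Lipocalin 2 sequesters bacterial iron-binding siderophores and is secreted by fat, neutrophils and epithelia. Lcn2 was at 1.86, 2.79, 3.05 and 2.92 CPM in wild-type and at 6.85, 7.80, 7.53 and 9.52 CPM in knockout-labelled adipocytes. Every knockout-labelled library was above 6 CPM and every wild-type library below 4 CPM. The difference was 1.58 ± 0.19 (adjusted p = 0.000489). Among granulocyte markers, another known source of Lcn2, 1 of 6 tested was called higher, S100a8 at 1.64 ± 0.42 (adjusted p = 0.015). The markers did not move together, since 3 of the 6 differences were above 0 and their median was 0.11. The knockout-labelled median of S100a8 was 4.22 CPM, against 1.44 CPM for wild-type. For S100a9 it was lower, 0.326 CPM against 0.925 CPM, with overlapping ranges. The summed granulocyte markers ran from 4.86 to 8.38 CPM in wild-type and from 8.46 to 11.4 CPM in knockout-labelled adipocytes, and their part in the Lcn2 result was not tested.

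The orosomucoids are lipocalin-fold plasma proteins that bind drugs and modulate immune cells. Orm1 was at 155, 309, 224 and 280 CPM in wild-type and at 513, 556, 477 and 544 CPM in knockout-labelled adipocytes, a difference of 1.11 ± 0.19 (adjusted p = 0.0025). It accounted for 96.5% ± 0.533 (SD, n = 4) of orosomucoid counts per base in wild-type and 97.5% ± 0.230 (SD, n = 4) in knockout-labelled adipocytes. The estimates for the minor genes were smaller, but the difference between the Orm genes was not tested.

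Orm2 was at 1.26, 2.20, 1.40 and 1.71 CPM in wild-type and at 2.32, 3.73, 2.45 and 2.68 CPM in knockout-labelled adipocytes. The groups were separated by the small gap between mouse wt_1136 and mouse ko_1137, and the difference was 0.77 ± 0.25 (adjusted p = 0.0363). Without any 1 of 6 libraries (wt_1135, wt_1138 or wt_1153, ko_1139, ko_1151 or ko_1152) it no longer passed, with adjusted p up to 0.112. Library totals in place of TMM also ended it (0.58, adjusted p = 0.0861). Orm3 was at 5.28, 6.85, 7.29 and 7.60 CPM against 9.40, 12.2, 10.3 and 11.3 CPM, a difference of 0.68 ± 0.15 (adjusted p = 0.00692). With all 16 libraries in the fit neither passed, Orm2 at 0.79 (adjusted p = 0.135) and Orm3 at 0.69 ± 0.52 (adjusted p = 0.32). Among the 76-day mice alone neither passed, Orm2 at 0.90 (adjusted p = 0.151) and Orm3 at 0.74 (adjusted p = 0.0663). Orm1 and Orm2 transcripts are 91% identical, and since Orm1 is so much more abundant, a small share of its reads assigned to Orm2 would weigh heavily there.

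Ceruloplasmin is the copper-carrying ferroxidase of plasma, which also exists in a membrane-anchored form. Cp was at 210, 219, 312 and 335 CPM in wild-type and at 618, 563, 663 and 650 CPM in knockout-labelled adipocytes. The groups were apart by more than 200 CPM, and the difference was 1.21 ± 0.16 (adjusted p = 0.000788). Hps3, which overlaps Cp in the annotation, was at -0.03 ± 0.09 (adjusted p = 0.829).

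**Figure D2:**
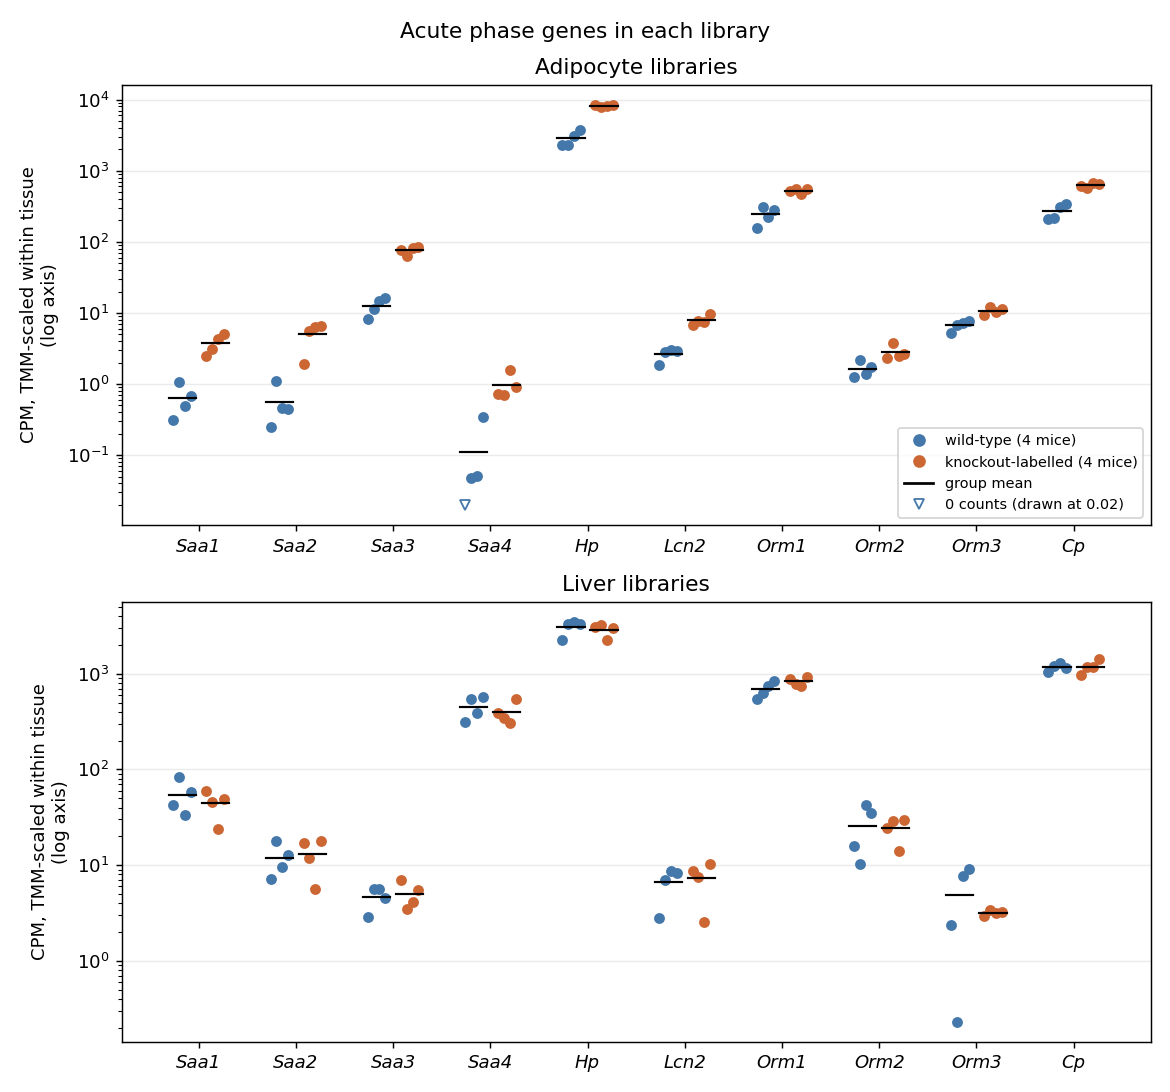
Level of each acute phase gene (vertical log axis, CPM scaled by TMM within the tissue) in each library of adipocytes (top) and liver (bottom), with each point 1 mouse and each bar a group mean of 4. In adipocytes the genotypes do not overlap for any gene (Hp 2257 to 3734 CPM against 7907 to 8391 CPM), and in liver they overlap for all of them.

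The adipocyte libraries also differed in other cell types. All 8 endothelial markers were called lower in knockout-labelled libraries (median -1.87), with 8 of 10 fibroblast and progenitor markers (median -1.50) and 7 of 8 mural markers (median -1.55). Summed over these 26 genes, the markers were at 3418, 2116, 2481 and 1765 CPM in wild-type and at 1330, 910, 715 and 803 CPM in knockout-labelled adipocytes. With the mean log2 level of these markers as a covariate, 1 of the 10 genes was called higher. Calls fell over all genes too: of 13795 tested, 281 were called higher and 219 lower, against 2487 and 2362 without the covariate. That gene was Saa3, at 2.06 ± 0.27 (adjusted p = 0.0045). All 10 estimates stayed above 0 with a median of 1.06. The 9 that lost their call ran from Orm3 at 0.30 (adjusted p = 0.588) to Saa2 at 1.37 (adjusted p = 0.438), with Hp at 1.15 (adjusted p = 0.0533). The summed markers follow the genotype labels without overlap. Taken singly, the groups did not overlap for 8 of 8 endothelial, 4 of 10 fibroblast and progenitor and 3 of 8 mural markers. All of these were lower, as were 15.2% of all genes. With the covariate the median standard error of the 10 genes went from 0.196 to 0.31. The markers and the genotype cannot be told apart in 8 libraries.

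Among 10 adipocyte markers 1 was called higher, and their sum ran from 39991 to 56368 CPM in wild-type and from 47349 to 53045 CPM in knockout-labelled libraries. Macrophage markers summed to 312 to 527 CPM against 121 to 531 CPM, with 1 of 10, Cd14, called lower and Clec4f at 0. Hepatocyte markers summed to 46.1 to 126 CPM against 20.1 to 33.5 CPM, most of it albumin. Alb was called lower, at 43.9 to 113 CPM in wild-type and 18.5 to 29.8 CPM in knockout-labelled adipocytes. For every 100 Alb counts the wild-type adipocyte libraries held 14.4 to 18.4 Saa3 counts and the knockout-labelled ones 215 to 461. The liver libraries held at most 0.0102. For Saa4 the same figure was 0 to 0.302 in wild-type adipocytes, 2.37 to 7.71 in knockout-labelled adipocytes and 0.375 to 0.759 in the 8 livers. The lower Alb of the knockout-labelled adipocytes raises their figures, and carry-over of liver RNA was not tested.

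**Figure D3:**
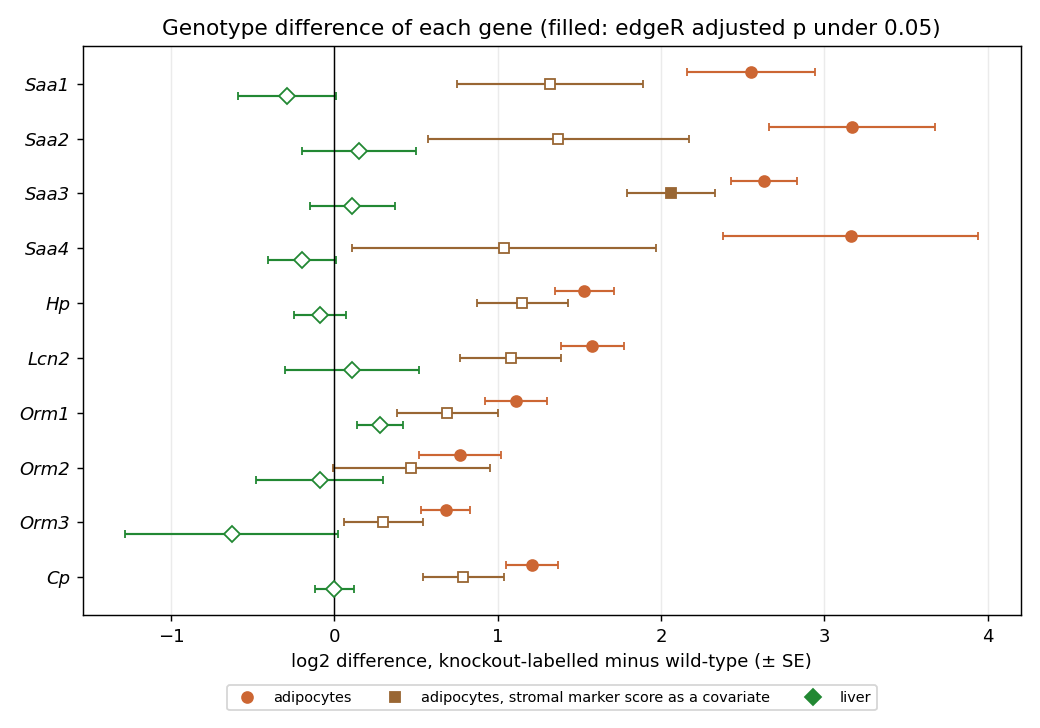
Difference of each acute phase gene (horizontal axis, log2, knockout-labelled minus wild-type, with bars of 1 standard error) in adipocytes, in adipocytes with the stromal marker score as a covariate, and in liver, 4 mice a genotype. Filled points passed the test: all 10 in adipocytes, Saa3 alone with the covariate (2.06), and none in liver.

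In liver none of the 10 genes differed between the genotypes by edgeR, and for all of them the groups overlapped. Over all 13288 genes tested 0.0226% were called, and in 4.66% the groups did not overlap (2.36% higher, 2.30% lower). None of the 10 had an unadjusted p under 0.05, and DESeq2 and limma-voom also called 0. The median difference was -0.05, beside 0.00 over all genes.

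The precision in liver differed between the members. Cp was at -0.00 ± 0.12 (adjusted p = 0.996) and Hp at -0.09 ± 0.16 (adjusted p = 0.9), both with small errors. Orm1 had the smallest p, at 0.28 ± 0.14 (unadjusted p = 0.0735, adjusted p = 0.624). Saa1 was at 42.2, 84.3, 33.6 and 57.7 CPM in wild-type and at 59.4, 45.6, 24.0 and 49.3 CPM in knockout-labelled livers. The groups overlapped between 33.6 and 59.4 CPM, with wt_1136 above and ko_1151 below that range, and the difference was -0.29 ± 0.30 (adjusted p = 0.808).

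Saa3 in liver was at 2.90, 5.58, 5.58 and 4.56 CPM against 7.05, 3.50, 4.09 and 5.53 CPM, and Lcn2 at 2.81, 6.97, 8.73 and 8.33 CPM against 8.72, 7.58, 2.54 and 10.4 CPM. One liver of each genotype, wt_1135 and ko_1151, was low for Lcn2 while the other 6 lay together. Orm3 varied most between wild-type livers, at 2.39, 0.232, 7.72 and 9.19 CPM (a 39.5-fold range, from 7 to 427 counts), and was at 2.93, 3.42, 3.20 and 3.22 CPM in knockout-labelled livers. Its difference of -0.63 ± 0.65 (adjusted p = 0.808) carries that spread.

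Between tissues, in wild-type mice, 8 of the 10 genes were lower in adipocytes than in liver and 1, Saa3, was higher. Here too the background is large: 77.6% of 14366 genes were called, 40.5% higher and 37.2% lower in adipocytes, and in 73.4% the groups did not overlap (38.5% higher, 35.0% lower). Apart from Hp, the gaps of the genes called lower ran from -12.57 ± 0.55 for Saa4 (adjusted p = 4.67e-09), -6.97 ± 0.40 for Saa1 (adjusted p = 4.32e-08) and -4.93 ± 0.44 for Saa2 (adjusted p = 1.52e-06) to -2.67 ± 0.20 for Cp and -1.88 ± 0.33 for Lcn2. Orm2 was at -4.52 ± 0.45 (adjusted p = 3.61e-06) and Orm1 at -2.06 ± 0.23 (adjusted p = 9.71e-06), while Orm3 was at -0.09 ± 0.66 (adjusted p = 0.905). The groups did not overlap for 7 of the 8 lower genes, the exception being Hp.

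Saa3 was higher in adipocytes by 0.89 ± 0.25 (adjusted p = 0.00804), although the ranges of the groups overlapped. Hp was lower by the main test, at -0.66 ± 0.25 (adjusted p = 0.034), but this call held in only 8 of 16 alternatives. It was lost with each mouse as a replicate block (-0.67, adjusted p = 0.0606), without any 1 of 6 of the 8 libraries (adipocytes wt_1135, wt_1136 or wt_1138, livers wt_1136, wt_1138 or wt_1153; adjusted p from 0.0538 to 0.0841) and with library totals (-0.02, adjusted p = 0.925). That last scaling moves the median of all genes to 0.71.

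Per kilobase of principal transcript, with all 16 libraries scaled together, the genes of wild-type liver ranked Hp (2746 ± 492 CPM per kilobase, SD, n = 4, as in the values that follow), Orm1 (1071 ± 200), Cp (351 ± 29.4), Saa4 (259 ± 70.4), Saa1 (107 ± 44.2), Orm2 (39.9 ± 23.1), Saa2 (23.4 ± 9.20), Saa3 (10.1 ± 2.70), Lcn2 (8.79 ± 3.52) and Orm3 (7.56 ± 6.58). Neighbours from Cp to Saa4, from Orm2 to Saa2 and from Saa3 down to Orm3 overlapped in their ranges. In wild-type adipocytes the order began alike, with Hp (1742 ± 425 CPM per kilobase), Orm1 (259 ± 75.3) and Cp (55.2 ± 12.8). Saa3 followed at 18.7 ± 5.28 CPM per kilobase, and Saa1 (0.871 ± 0.456), Saa2 (0.782 ± 0.533) and Saa4 (0.0435 ± 0.0611) came last.

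In knockout-labelled adipocytes the same 4 genes led, with Hp at 5120 ± 180, Orm1 at 566 ± 32.1, Cp at 130 ± 10.4 and Saa3 at 117 ± 15.0 CPM per kilobase (SD, n = 4). Cp and Saa3 were close to each other there, whereas in wild-type adipocytes Cp was clearly above Saa3. Every knockout-labelled adipocyte library held more Hp per kilobase (4855 to 5243 CPM) than any of the 8 livers (2017 to 3093 CPM), a comparison that was not tested. Counts per kilobase from a poly-A library set genes in a rough order only, since the transcript used is the annotated principal one.

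The genotype difference was larger in adipocytes than in liver for 8 of the 10 genes in a fit over all 16 libraries, where 10.4% of 14898 genes were called higher in this sense and 8.73% lower. The excess over liver was 2.55 ± 0.34 for Saa3 (adjusted p = 0.000154), 1.65 ± 0.28 for Hp (adjusted p = 0.00111), 1.24 ± 0.23 for Cp (adjusted p = 0.00174) and 2.88 ± 0.52 for Saa1 (adjusted p = 0.00174). It was 3.05 ± 0.65 for Saa2 (adjusted p = 0.00449) and 3.39 ± 0.67 for Saa4 (adjusted p = 0.00294). These 6 genes passed under all 23 alternatives tried, which did not include the stromal covariate or the 76-day mice alone.

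Lcn2 (1.49 ± 0.50, adjusted p = 0.0489) and Orm1 (0.86 ± 0.26, adjusted p = 0.0283) were nearer the threshold. Lcn2 failed in 16 of the 23 alternatives, with adjusted p up to 0.101. Leaving out any 1 library ended its call except for 3, the livers of wt_1135 and ko_1152 and the adipocytes of ko_1137. Orm1 failed in 7, with library totals (adjusted p = 0.0695) and without the liver of ko_1139, ko_1151 or wt_1153 or the adipocytes of wt_1138, ko_1139 or ko_1152 (adjusted p up to 0.0622). For Orm2 (0.89 ± 0.52, adjusted p = 0.252) and Orm3 (1.32 ± 0.75, adjusted p = 0.231) the difference between tissues did not pass, and their liver differences had errors of 0.39 and 0.65. Without the liver of wt_1136, which had 7 Orm3 counts, Orm3 passed at 1.71 (adjusted p = 0.0104).

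The other genes of the acute phase response did not move as one in adipocytes. Of 31 further positive acute phase genes listed, 21 were tested, 7 were called higher and 3 lower, beside 18.0% and 17.1% of all genes. Their median was 0.03, beside -0.01 over all genes. The 3 with the smallest p were Cd14, the coreceptor for endotoxin (-1.30 ± 0.15, adjusted p = 0.000333), Lbp, which hands endotoxin to it (1.22 ± 0.20, adjusted p = 0.0022), and C4b, complement component 4 (-1.14 ± 0.20, adjusted p = 0.00304). Of 13 negative acute phase genes 8 were tested, 1 was called higher and 2 lower, with a median of -0.27. They were Alb (-1.88 ± 0.28, adjusted p = 0.00147), Igfals, which stabilises circulating insulin-like growth factors (-0.60 ± 0.17, adjusted p = 0.0237), and Trf, transferrin (0.48 ± 0.16, adjusted p = 0.0451). The call for Trf was lost in 13 of 18 alternatives, among them 7 of the 8 that left out 1 library (all but wt_1153), with adjusted p up to 0.729. Cd14 and C4b are also expressed by macrophages and stromal cells, and the part of those cells was not tested. Stromal markers were lower, and macrophage markers varied between libraries. Cd14 is itself on the macrophage list, as its only marker called lower, so that list is no separate background for it. With the stromal covariate Cd14 kept its call and C4b lost it (edgeR, adjusted p = 0.0601).

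Upstream of the acute phase genes, 25 of 29 listed cytokine, receptor and transcription factor genes were tested. Of these 1 was called higher and 6 lower (median -0.21), beside 18.0% and 17.1% of all genes tested in adipocytes. Il6ra, the interleukin 6 receptor, was higher by 0.92 ± 0.19 (adjusted p = 0.00626). Il6 itself was lower (-1.42 ± 0.33, adjusted p = 0.00982), as was Lifr, the receptor for leukaemia inhibitory factor (-0.74 ± 0.14, adjusted p = 0.00373). The mRNAs of the C/EBP family, looked up after their values were seen, did not pass: Cebpa was at 0.01 ± 0.12 (adjusted p = 0.951), Cebpb at 0.22 ± 0.14 (adjusted p = 0.247) and Cebpd at -0.21 ± 0.12 (adjusted p = 0.207). An mRNA level does not measure the protein. Of 8 glucocorticoid-induced genes none was called higher and 2 were called lower, Sgk1 (-0.52 ± 0.12, adjusted p = 0.00835) and Dusp1 (-0.59 ± 0.19, adjusted p = 0.0389). The call for Dusp1 held in only 9 of 18 alternatives and was lost in 5 of the 8 that left out 1 library. With the stromal covariate Dusp1 was at 0.20 (adjusted p = 0.727). Neither gene passed with that covariate or among the 76-day mice alone.

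Among 19 receptors and iron-handling partners of these proteins 17 were tested. Of these 4 were called higher and 3 lower (median 0.01), beside 18.0% and 17.1% of all genes tested in adipocytes. Tfrc, the transferrin receptor, was lower, at -0.82 ± 0.09 (adjusted p = 0.000293). Hephl1, a membrane ferroxidase related to ceruloplasmin, was higher by 1.89 ± 0.23 (adjusted p = 0.000467). Slc22a17, described as a lipocalin 2 receptor, was at -0.71 ± 0.09 (adjusted p = 0.000803). In liver edgeR called none of the genes in these 5 lists, with 0 to 3 a list at an unadjusted p under 0.05. There limma-voom also called 0, and DESeq2 called 1, lower, among the receptors and iron-handling partners. Most of the calls in the 5 lists in adipocytes were lost with the stromal covariate.

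**Figure D4:**
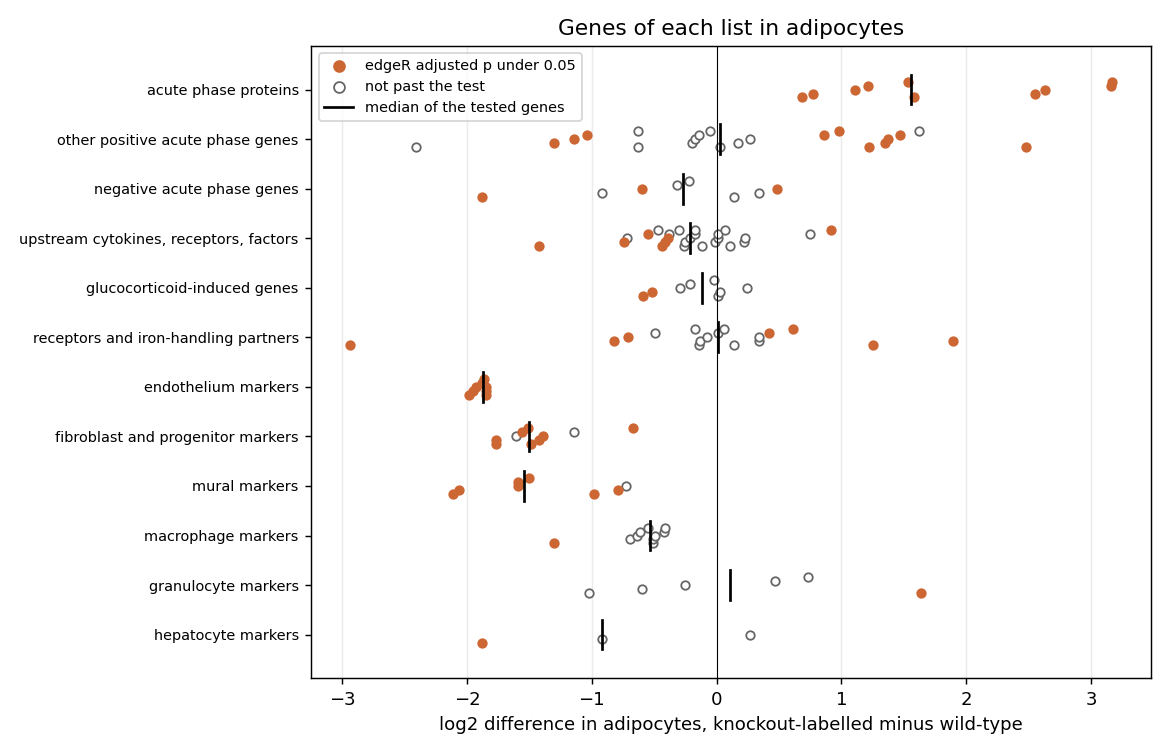
Difference of each tested gene (horizontal axis, log2, knockout-labelled minus wild-type adipocytes) in the acute phase genes, the pathway lists and the cell type marker lists, with each point 1 gene and each vertical bar the list's median. The 10 acute phase genes all lie above 0 with a median of 1.56, the other positive acute phase genes lie on both sides with a median of 0.03, and endothelial markers have a median of -1.87.

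Genes with the most similar profiles were sought over the 8 adipocyte libraries, by the root mean square distance between log2(CPM + 1) values centred on each gene's mean. Closest to Saa3 were 1100001G20Rik (distance 0.164), which RefSeq lists as Wfdc21, Hsd11b1, the enzyme that regenerates active glucocorticoid (0.241), and Map7, a microtubule-associated protein (0.248). 1100001G20Rik went from a mean of 52.4 to 311 CPM and Hsd11b1 from 171 to 957 CPM. Closest to Hp were Mal2 (0.123), Lox, lysyl oxidase (0.167), and Sgms2, a sphingomyelin synthase (0.172). Closest to Lcn2 were Cdo1, cysteine dioxygenase (0.0734), Retn, the adipokine resistin (0.0971), and Apmap, an adipocyte plasma membrane protein (0.1). The 1 CPM added before the logarithm shrinks differences at low levels, so a near profile is not an equal fitted difference. Lcn2, at a mean of 2.65 CPM in wild-type, differed by 1.58, and Cdo1, Retn and Apmap by 1.28, 1.27 and 1.22. Hp differed by 1.53, and Mal2, Lox and Sgms2 by 1.82, 1.48 and 1.83. Likeness over 8 libraries follows the genotype contrast and carries no test of its own.

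The 20 tested genes that flank the 5 places in the annotation were mixed, with 7 called higher and 3 lower in knockout-labelled adipocytes. Over all genes tested there 18.0% were called higher and 17.1% lower. Beside the Saa genes, Sergef was at 0.00 ± 0.16 (adjusted p = 0.986) and Saal1 at 0.33 ± 0.17 (adjusted p = 0.154), while Hps5 and Gtf2h1 were called at 0.44 and 0.28, all far below the Saa genes themselves. Beside the Orm genes, Col27a1, a fibrillar collagen gene, was lower, at -2.32 ± 0.33 (adjusted p = 0.00119), as were Zfp618 (-1.77) and Akna (-1.61). Of the 4 neighbours of Hp 1 was called, Txnl4b at 0.36 (adjusted p = 0.0193). Beside Lcn2, Ptges2, prostaglandin E synthase 2 (0.84 ± 0.11, adjusted p = 0.000628), and 1110008P14Rik (1.13 ± 0.16, adjusted p = 0.00101) were higher. Around Cp, Pde7a, a cyclic AMP phosphodiesterase, was higher by 1.21 ± 0.15 (adjusted p = 0.000501), and Gyg, glycogenin, by 0.85 ± 0.14 (adjusted p = 0.00235). Pde7a ends at chr3:19311322, far from the Cp start at chr3:19957054. The nearest tested gene on each side of Cp was not called, 4632415L05Rik at -0.12 (adjusted p = 0.543) and Hltf at 0.04 (adjusted p = 0.769).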

How the data were processed

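Poly-A RNA of 16 libraries was sequenced, and the deposited files hold whole-number counts per gene for each library, made by the authors with bcl2fastq 2.17, STAR 2.5.2b and featureCounts 1.5.0 on mm10, per the submitters' processing notes; read length, strand setting and treatment of multiply mapped reads are not given in the sources. Of the deposited counts from 1 to 20, 77.9% were even, so a fit on halved counts was run. Groups came from sample titles, 4 libraries each. edgeR 4.0.16 (R 4.3.3; TMM, filterByExpr, quasi-likelihood test) was fitted across all genes, separately for the genotypes in each tissue, for the tissues in wild-type mice, and for the difference of the genotype effects over 16 libraries, with Benjamini-Hochberg adjustment at 0.05. DESeq2 1.42.0 and limma 3.58.1 were alternatives, with other scalings, filters, age, the stromal covariate and leaving out each library. On simulated counts 99 genes drawn at random were changed by a log2 of 1 and 97 by 2, in either direction, with 13469 unchanged. There the adipocyte fit recovered 75.8% of log2 changes of 1 and 97.9% of 2. In the data 35.2% of genes were called, so recovery there may differ and was not measured. At most 3 genes with the smallest p were named per pathway list, unless said otherwise. Mouse numbers in the titles pair adipocytes and liver of the same animal. Deviations from the group means correlated weakly across genes between the tissues of a mouse, from -0.0888 to 0.149. These values do not check the pairing. Lengths and positions came from GENCODE M21, promoters from RefSeq GRCm38.p6. The members and lists were chosen with earlier results of these data known.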

Additional observations from a re-analysis of the deposited data

Results flagged for a closer look

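Saa4 in wild-type adipocytes of mouse wt_1153 stood apart from the other 3 wild-type mice, at 0.341 CPM against 0 to 0.0517 CPM, with a gap of 0.848 of the group's range which is past Dixon's 95% limit for 4 samples. This was the only one of 40 combinations of gene and group examined to pass the limit, and chance passes about 1 in 20. The 14 counts behind it are few.

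For 8 genes the genotype difference in adipocytes exceeded that in liver by the edgeR test of the difference itself (log2, all with adjusted p under 0.05): Saa4 by 3.39, Saa2 by 3.05, Saa1 by 2.88, Saa3 by 2.55, Hp by 1.65, Lcn2 by 1.49, Cp by 1.24 and Orm1 by 0.86. In each case every knockout-labelled adipocyte library was above every wild-type one, while the liver groups overlapped.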

How the results depend on the processing

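Over the alternatives tried the 10 genes gave 179 values in adipocytes, of which 159 kept their call and 20 lost it, and 180 in liver, where none gained a call. Between tissues 152 of 160 values kept their call or its absence, the other 8 being Hp, and for the difference of the genotype effects 206 of 230 did, with 23 lost and 1 gained. No estimate that passed the test turned its sign among the 10. The largest effect came from the stromal covariate, with which 1 of the 10 genes was called higher in adipocytes instead of 10, and Dusp1 turned from -0.59 to 0.20. Saa4 was not tested in adipocytes at a mean of at least 1 CPM. Over all genes in adipocytes, 2487 were higher and 2362 lower, against 1293 and 3899 with library totals, 832 and 898 in the 76-day mice and 281 and 219 with the covariate. Library totals moved the median of all genes to -0.205 in adipocytes, gave 3064 lower genes between tissues instead of 5337, and 683 and 2242 for the difference of effects instead of 1544 and 1301. With the covariate the other positive acute phase genes gave 0 higher and 1 lower instead of 7 and 3, the upstream genes 0 and 1 instead of 1 and 6, the glucocorticoid-induced genes 0 lower instead of 2, and the receptors and iron-handling partners 0 higher instead of 4. Among the 76-day mice these lists gave 3 higher positive acute phase genes, 1 lower upstream gene and 2 higher receptors and partners, and leaving out 1 library took the lower upstream genes to as few as 3. The higher negative acute phase gene, Trf, was lost under most alternatives. In liver DESeq2 called 53 genes higher and 49 lower, none among the 10, against 3 and 0 by edgeR. No paired analysis was possible for the genotypes within a tissue because no mouse is in both. With the mouse as a replicate block the tissue comparison gave 7 lower members instead of 8, as Hp was lost, and the difference of effects kept 8; the block changed no other member's call. Depth limits Saa4 in adipocytes, whose wild-type libraries held 0 to 14 counts.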

Other observations

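Iron-handling genes other than those named in the report were looked up after their values were seen. In adipocytes Slc40a1, the iron exporter ferroportin, was higher in the knockout-labelled libraries by 1.25 ± 0.21 (edgeR, adjusted p = 0.00243), and Tfr2, transferrin receptor 2, was lower, at -2.94 ± 0.40 (adjusted p = 0.00089). Hfe, the haemochromatosis gene (0.61 ± 0.13, adjusted p = 0.00673), and Slc11a2, an iron importer (0.42 ± 0.09, adjusted p = 0.00777), were called higher. Of the positive acute phase genes, Fga, the fibrinogen alpha chain, was at 2.48 ± 0.46 (adjusted p = 0.00361). Its level was low, with medians of 0.673 CPM (wild-type) and 5.72 CPM (knockout-labelled). The other fibrinogen chains were not tested, and their medians fell, Fgb from 0.281 to 0.0273 CPM and Fgg from 0.329 to 0.0960 CPM. Hpx, hemopexin, which binds haem, was at 1.35 ± 0.39 (adjusted p = 0.0236), its median rising from 1.41 to 3.24 CPM. Il1rn, the interleukin 1 receptor antagonist, was at 1.37 ± 0.32 (adjusted p = 0.00929), while Itih4 was at -1.04 ± 0.35 (adjusted p = 0.0425). Also called higher were Serpina1a (1.47 ± 0.34), Serpina3m (0.98 ± 0.30) and the more abundant C3 (0.86 ± 0.18, median from 1561 to 3006 CPM). With the stromal covariate none of the higher calls in either list held, and among the 76-day mice 2 iron-handling genes and partners and 3 positive acute phase genes were called higher.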
